A study of Trichoderma reesei QM6a with 24 samples.

Results

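The effect of L-methionine on gene expression in *Trichoderma reesei* was compared between constant light and constant darkness, in the deletion mutant QM6aΔ72004. Mycelium of this strain was sequenced in 4 groups of 3 libraries: light with 5 mM L-methionine, light without it, darkness with 5 mM L-methionine and darkness without it. These 12 libraries were chosen by genotype, lighting and medium from 24 in all; the other 12 are the same 4 groups of the wild type QM6a, the parent strain. All cultures grew at 28 °C in minimal medium with cellulose as the carbon source. The sample labels give 72 h of growth and the growth protocol gives 96 h. The labels do not say whether the mutant is a single clone, or whether the 3 libraries of a group come from separate cultures, so the p-values reflect only how far these libraries differ among themselves, a spread that may be technical.

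*T. reesei* is a soil fungus known for secreting enzymes that break down cellulose and hemicellulose. The genes of these enzymes are switched on by activators, of which xyr1 encodes the main one, and their output is known to depend on light. Light is sensed by a photoreceptor complex that includes BLR2, the homologue of the *Neurospora* WC-2 protein. Signals from outside the cell also pass through G-protein coupled receptors, membrane proteins that act on G-protein subunits and, through them, on cAMP and protein kinase A. The title of the series names such a receptor in the response to methionine.

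The quantity described here is the interaction: the log2 fold change with methionine in light minus the log2 fold change with methionine in darkness. A positive value means that methionine left the transcript higher, relative to its absence, in light than it did in darkness. It was tested with edgeR's quasi-likelihood test on raw counts per gene model, and a model was called where the Benjamini-Hochberg adjusted p was under 0.05. Mutant libraries held 16533052 to 21224989 counts over 10879 gene models, and 9308 models had enough counts to be tested. Levels are given as CPM, the counts put on a common scale by normalised library totals. SE is an approximate standard error: the size of a log2 value divided by the square root of its quasi-likelihood F statistic. It is unreliable where counts are few. CPM is not corrected for gene length, so levels are compared between groups for 1 model and not between models. Models were ranked by absolute change in CPM only to choose examples, and that ranking also depends on gene length. Gene symbols were carried over from a reference table by span and gene order, and reached 36 tested models. Where a model has no symbol, its locus tag is given if one was linked.

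The model of the deleted gene, TrE0303W, had 0 counts in each of the 12 mutant libraries, against 86 to 579 in each of the 12 wild type libraries. A second model, TrC0447C, likewise had 0 counts in each mutant library, against 211 to 797 in each wild type library. In light with methionine, replicate 3 stood at least 4-fold above both other replicates in 12 models, 10 of which had a called positive interaction. Replicate 1 of that group stood apart in this way in 17 models, 0 of them with a called positive interaction and 8 with a negative one. For replicate 2 in light without methionine these numbers were 31, 2 and 18. For replicate 1 in darkness without methionine they were 7, 2 and 1. Where leaving out 1 library moved a called interaction by over 1.5 times, the value without it is given as well. The library numbers of the light samples and those of the dark samples come from 2 separate series. A difference between light and darkness therefore cannot be told apart from a difference between these series. Each methionine response was measured within 1 of them. The interaction compares the 2 responses, so it cannot be told apart from a difference in methionine response between the series.

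The response to methionine differed between the light and the dark libraries for a large part of the transcriptome. The interaction was called in 4251 models, 45.7% of those tested. It was positive in 2082 (22.4%) and negative in 2169 (23.3%), and the median over all models was −0.05. The 2 responses differed by at least 2-fold in 1855 of the called models, 943 of them positive and 912 negative, and by at least 16-fold in 249. In 128 of the called models, 88 of them among the 249, at least 1 of the 4 groups had no more than 3 counts, so that their fitted values depend on the small count that edgeR adds. Of the 4251 calls, 3297 (77.6%) held when each of the 12 mutant libraries was left out in turn.

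Methionine itself changed most of the tested models in both lightings. It changed 6672 models in light (71.7%), where 3477 were higher and 3195 lower, and 7192 in darkness (77.3%), where 3683 were higher and 3509 lower. The commonest form of interaction was a change in the same direction under both lightings that was larger in darkness, in 1369 models. Among these, 780 rose, with a median log2 change of 1.03 in light and 2.13 in darkness, and 589 fell, with medians of −0.51 and −1.18. The opposite order, larger in light, was found in 663 models. Of those, 340 rose (medians 2.23 in light and 0.93 in darkness) and 323 fell (−1.43 and −0.77).

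A further 989 models were called in darkness alone, 524 higher and 465 lower with methionine. In light alone 646 models were called, 342 higher and 304 lower. The direction turned round in others: 325 were higher with methionine in light and lower with it in darkness, and 217 were lower in light and higher in darkness. Both changes reached 2-fold in 106 of the 325 and in 47 of the 217. In 42 models the interaction was called although neither response was. This count was 14 with the mutant libraries fitted alone, 25 without replicate 2 of darkness with methionine and 26 without replicate 2 of light with methionine.

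**Figure D1:**
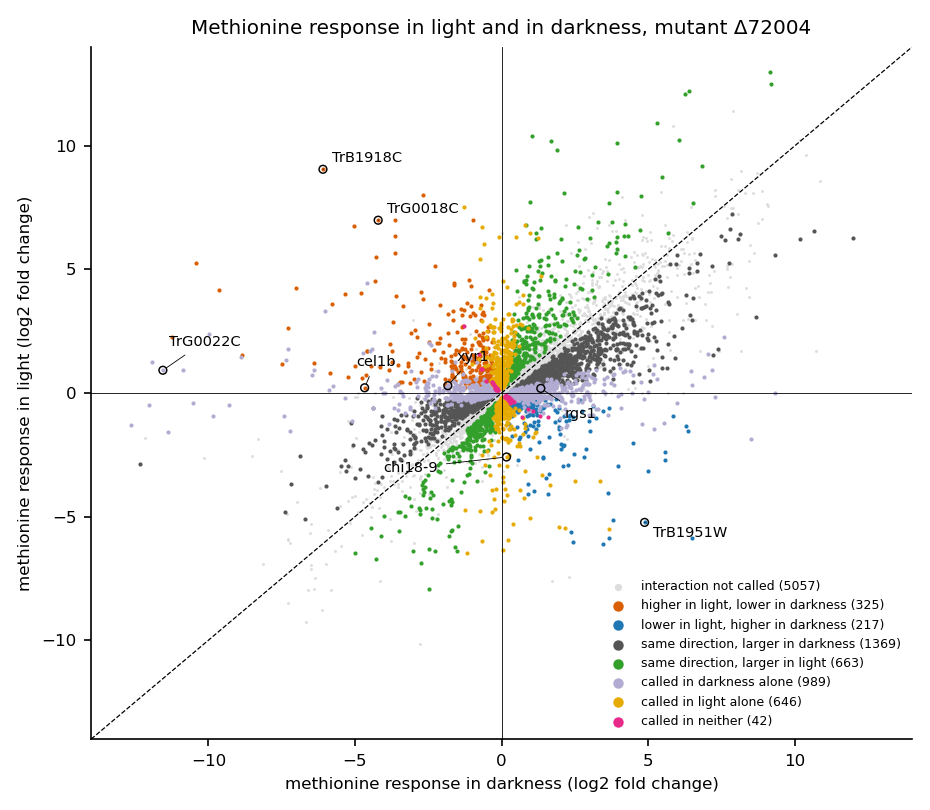
Methionine response of each tested model in the mutant, light (y axis) against darkness (x axis), both as log2 fold changes. Light grey points had no called interaction, colours give the form of the interaction with its number of models, the dashed line marks equal responses, and circled models are described in the text. The 325 orange models lie in the upper left region and the 217 blue ones in the lower right.

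Seen from the lighting side, methionine went with smaller differences between light and darkness. This view uses the same 4 groups, since the interaction is also the lighting difference with methionine minus that without. Light against darkness was called in 3785 models with methionine (40.7%) and in 5806 without it (62.4%), and the median size of the log2 difference over all models was 0.26 with methionine and 0.47 without. Among the 4251 models with a called interaction the medians were 0.29 and 0.76, and the lighting difference was the smaller one with methionine in 3349 (78.8%). The lighting difference was called only with methionine in 555 of them, only without it in 2100, under both media in 1495 and under neither in 101. Among the 1495, 489 changed the direction of the lighting difference between the media.

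**Figure D2:**
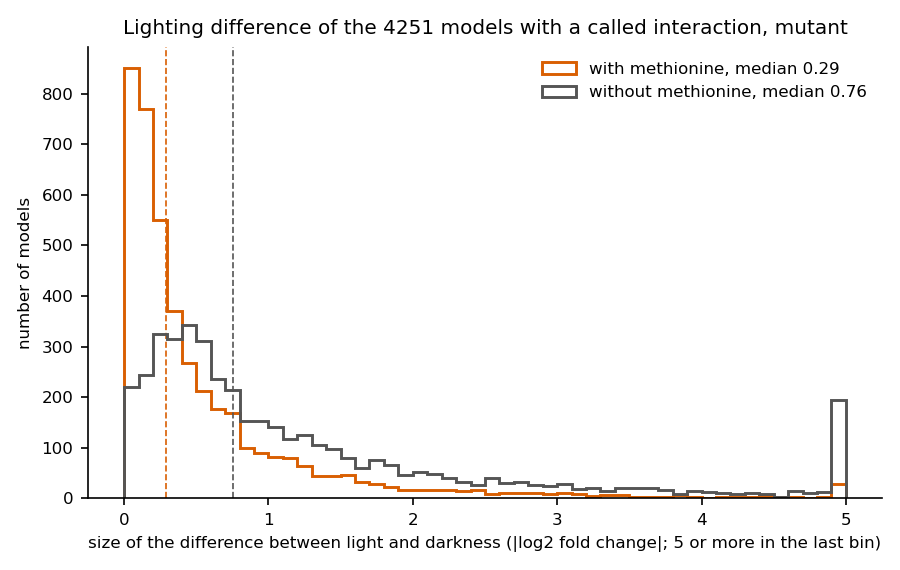
Number of models by the size of the difference between light and darkness (absolute log2 fold change) in mutant libraries with methionine and without, for the 4251 models with a called interaction. Dashed lines mark the medians, 0.29 with methionine and 0.76 without, and the last bin gathers all larger values.

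In many of the called models a single group stood apart. With levels taken as log2(CPM + 1), 558 of the 1855 models past 2-fold (30.1%) had 1 group apart and the other 3 within 2-fold of each other, a rule chosen after the data were seen. Darkness without methionine was the group apart most often, high in 188 models and low in 135. Light without methionine was low in 104 and high in 54. The groups with methionine were apart in far fewer: darkness with methionine was high in 44 and low in 8, and light with methionine was low in 15 and high in 10.

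The models with the most positive interactions took a large share of all reads in darkness without methionine. The 148 positive models past 16-fold together took 0.805, 0.532 and 4.93% of the counts in the libraries from light with methionine, against 0.0537 ± 0.00446% in light without it (SD, n = 3). In darkness they took 0.697 ± 0.0872% with methionine, against 6.06 ± 0.341% without. Light with methionine thus held 1 high library, replicate 3. Without that library 142 of the 148 models were still called and 137 were still past 16-fold. The 101 negative models past 16-fold were the reverse in light, with 0.883 ± 0.265% of counts with methionine, against 7.85 ± 0.98% without it. In darkness they took 1.14 ± 0.336% with methionine, against 0.348 ± 0.018% without. Most of the 7.85% came from 1 model, TrE0391W, which had 67400, 50600 and 71500 CPM in light without methionine.

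The linked genes for the degradation of plant cell walls had mostly positive interactions. Of the 47 genes in lists of cellulases, hemicellulases and their regulators, 9 could be linked to a tested model. The interaction was positive in 8 and negative in 1, with a median of 4.88, against −0.05 over all models, of which 22.4% were called positive and 23.3% negative. Most listed genes were not linked, so the count covers a small part of the lists. All 4 linked members of the cellulase list were positive (median 7.41), as were 3 of 4 in the hemicellulase list (median 3.88). The remaining member, xyr1, is the regulator and was positive too. The cellulase list is broad, since its linked members cel1b and cip2 encode a beta-glucosidase and a glucuronoyl esterase.

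The gene cel1b (TrB0813C, unitig_1_consensus 2525954 to 2527684, 4 exons, coding length 1455 bases) encodes a beta-glucosidase, which splits cellobiose into glucose. In light it had 47, 41.2 and 36.8 CPM with methionine, against 35.6, 37.5 and 34.9 CPM without. In darkness it had 34.6, 33.8 and 35.2 CPM with methionine, against 828, 887 and 924 CPM without. Only darkness without methionine was high, and its libraries did not overlap those of any other group. Methionine raised cel1b 1.17-fold in light and lowered it 25.4-fold in darkness. The interaction was 4.88 (SE 0.12, edgeR adjusted p = 7.55e-17), and was 4.79 to 4.97 with single libraries left out.

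The activator gene xyr1 (TrC0438W, unitig_2_consensus 1447710 to 1450659, 4 exons) followed the same pattern at a smaller scale. Its level in light was 275, 274 and 291 CPM with methionine, against 229, 225 and 229 CPM without. In darkness the level was 189, 162 and 169 CPM with methionine, against 543, 674 and 640 CPM without. The interaction was 2.13 (SE 0.10, edgeR adjusted p = 2.45e-12). The lighting difference of xyr1 had opposite directions by medium, since light was 1.61-fold higher than darkness with methionine and 2.71-fold lower without it.

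The gene cip2 (TrB1968W) encodes a glucuronoyl esterase with a cellulose-binding module. It was near the limit of detection in every group other than darkness without methionine. The level in light was 0.0882, 0.098 and 0.45 CPM with methionine, against 0.557, 0.122 and 0.0601 CPM without it. In darkness it was 0, 0.319 and 0 CPM with methionine, against 142, 165 and 172 CPM without. The interaction of 10.13 (SE 1.75, edgeR adjusted p = 8.17e-05) rests on few counts in 3 of the groups. Leaving out replicate 2 or 3 of darkness with methionine gave 14.03 or 9.48, dropping replicate 1 of light without methionine gave 11.60, and dropping replicate 3 of light with methionine gave 9.10.

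2 neighbouring models, TrG0018C and TrG0019C, behaved differently from cel1b in light. TrG0018C (TRIREDRAFT_111849 of the hemicellulase list, unitig_6_consensus 53970 to 55641) had 184, 106 and 1220 CPM in light with methionine, against 4.05, 3.79 and 4.03 CPM in light without. Darkness gave 51.7, 52.1 and 76.5 CPM with methionine, against 1020, 1140 and 1180 CPM without. The direction thus turned round: TrG0018C rose in light and fell by 4.21 on the log2 scale in darkness, an interaction of 11.20 (SE 1.14, edgeR adjusted p = 1.18e-07). Replicate 3 was the highest library of light with methionine. By the ratio of group means the rise in light was 128-fold with that library and 36.7-fold without it, and the interaction was 9.41 without it.

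TrG0019C (TRIREDRAFT_123992 of the cellulase list) lies just beside it, at 57747 to 59535 of the same contig. It had 22.2, 13 and 74.3 CPM in light with methionine, against 6.33, 6.48 and 4.75 CPM in light without. In darkness TrG0019C had 11.8, 8.92 and 10.3 CPM with methionine, against 1380, 1690 and 1800 CPM without. Its interaction was 9.93 (SE 0.81, edgeR adjusted p = 4.7e-09), and 8.89 without replicate 3 of light with methionine.

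The other members of the lists moved less or were at low levels. TrA2104C (TRIREDRAFT_76227, cellulase list) and TrD0438C (TRIREDRAFT_80240, hemicellulase list) had interactions of 1.5 (SE 0.14) and 1.55 (SE 0.19). TrA2132C (TRIREDRAFT_76210, hemicellulase list) was at 0 to 0.0441 CPM in both groups in light, and at 5.97, 8.23 and 5.52 CPM in darkness without methionine. Its call, with an edgeR adjusted p of 0.0406, was lost in 6 of the 12 fits that left out 1 library, with a value of 4.50 without replicate 1 of light with methionine, and with the mutant libraries alone (0.0527).

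TrC0659C (TRIREDRAFT_55319, hemicellulase list) was the member with a negative interaction. In light it had 6.97, 9.4 and 11.1 CPM with methionine, against 34.8, 36.2 and 40.2 CPM without. Its dark libraries had 34.5, 38.5 and 48.1 CPM with methionine, against 89.9, 103 and 104 CPM without. It fell under both lightings, by 2.02 on the log2 scale in light and by 1.29 in darkness. The interaction was −0.73 (SE 0.23, edgeR adjusted p = 0.0149). With methionine, leaving out replicate 3 in darkness (−0.58) or replicate 1 in light (−0.56) ended the call.

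**Figure D3:**
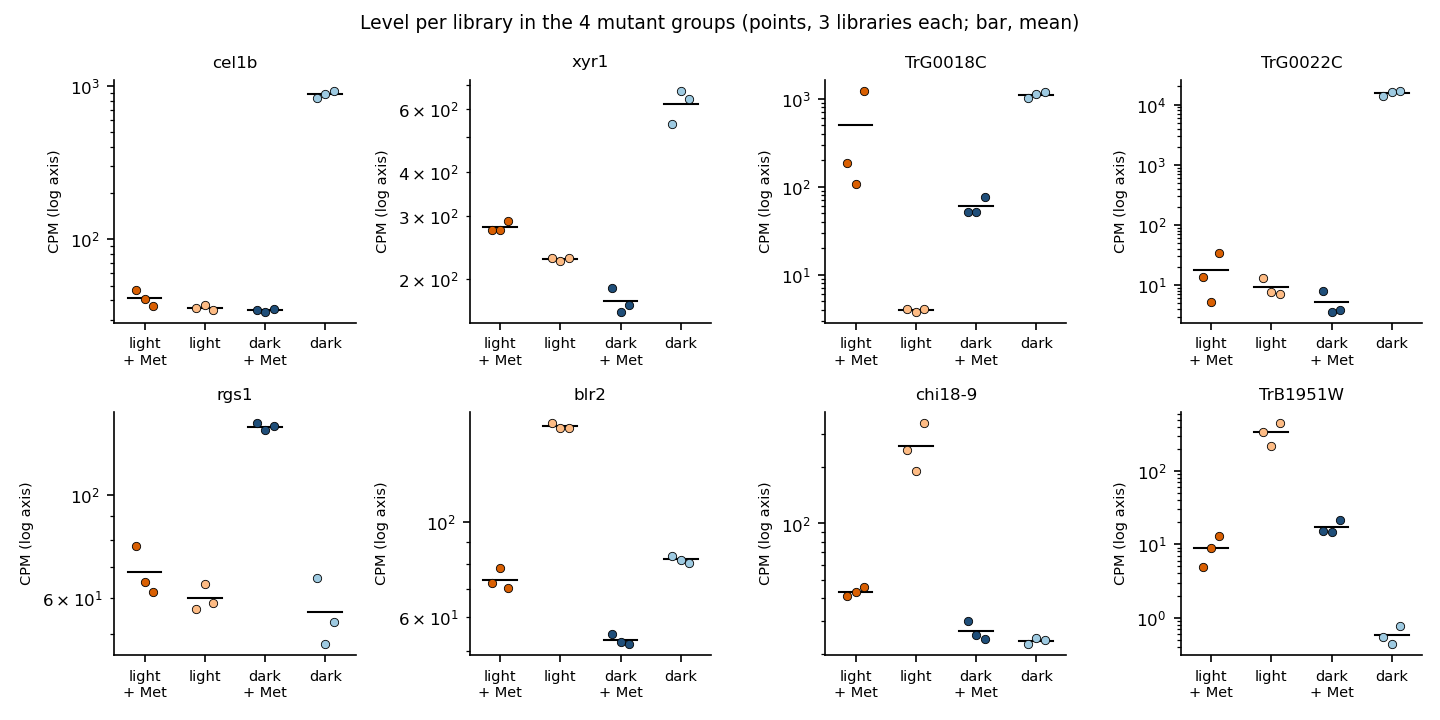
Level of 8 models in each of the 12 mutant libraries, in CPM on log axes whose ranges differ between panels, with the groups light with methionine, light, darkness with methionine and darkness from left to right. Points are libraries and bars are group means. In cel1b and TrG0022C darkness without methionine is the 1 high group, in rgs1 darkness with methionine is, and in chi18-9 light without methionine is.

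The interaction was called negative in 2 of the 5 linked members of the G-protein and cAMP list and positive in none, with a list median of −0.13. The share called was near the 45.7% of all tested models. The first, rgs1 (TrE0578W), encodes a regulator of G-protein signalling, a class of protein that switches off the G-protein alpha subunit. The level of rgs1 in light was 77.5, 64.8 and 61.7 CPM with methionine, against 56.6, 64.1 and 58.5 CPM without. In darkness it was 143, 138 and 141 CPM with methionine, against 66.3, 47.6 and 53.2 CPM without. Darkness with methionine was the 1 high group, and the interaction was −1.15 (SE 0.15, edgeR adjusted p = 2.36e-06).

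The second was gna2, the gene of a G-protein alpha subunit. In light it had 97.5, 94.8 and 86.2 CPM with methionine, against 90.7, 88.9 and 87.1 CPM without. Darkness gave 106, 90.4 and 84.7 CPM with methionine, against 62.7, 66.3 and 68.3 CPM without. Here darkness without methionine was the low group, and the interaction was −0.45 (SE 0.11, edgeR adjusted p = 0.00182). The interaction did not pass in gna3, another alpha subunit gene (−0.02, SE 0.12), in pkar1, the regulatory subunit of protein kinase A (−0.13, SE 0.11), or in pkac2, a catalytic subunit of that kinase (0.21, SE 0.13). All 3 were higher with methionine under both lightings. The interaction of pkac2 passed when replicate 2 of light without methionine was left out (0.34, edgeR adjusted p = 0.0222).

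The photoreceptor gene blr2 (TrD1076W) was lower with methionine under both lightings, and more so in light. Its level in light was 72, 78.2 and 70.2 CPM with methionine, against 170, 166 and 166 CPM without. In darkness blr2 had 55, 52.6 and 52 CPM with methionine, against 83.5, 81.8 and 80.5 CPM without. The groups did not overlap. The interaction was −0.56 (SE 0.08, edgeR adjusted p = 5.44e-06), and blr2 is the 1 of 6 listed light genes that could be linked.

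TrE0663W (TRIREDRAFT_102497, the linked member of the 5 genes in a list for the pigment sorbicillin) had 29.5, 30.6 and 30.4 CPM in light with methionine, against 36.9, 34 and 40.1 CPM in light without. In darkness it had 31.1, 29 and 28.8 CPM with methionine, against 139, 112 and 140 CPM without. Again darkness without methionine stood alone, and the interaction was 1.84 (SE 0.14, edgeR adjusted p = 1.89e-09).

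Among all 36 tested models with a symbol, 16 had a called interaction, 10 positive and 6 negative, a share near the 45.7% of all tested models. All 4 genes of vesicle traffic among them were positive, against 22.4% of all tested models. This grouping was picked after the data were seen, so the count describes these genes only. The largest was sso1, which encodes a SNARE protein of the plasma membrane that takes part in secretion. In light sso1 had 106, 115 and 94.9 CPM with methionine, against 56.1, 59.2 and 52.5 CPM without. Among the dark libraries it had 146, 142 and 130 CPM with methionine, against 125, 133 and 141 CPM without. Light without methionine was the low group, and the interaction was 0.85 (SE 0.11, edgeR adjusted p = 2.38e-06). The others were sar1, a GTPase of transport vesicles (0.36), sec1, a regulator of SNARE proteins (0.35), and snc1, a SNARE of secretory vesicles (0.39). The call of snc1 was lost in 5 of the 12 fits that left out 1 library and with the mutant libraries alone (edgeR adjusted p = 0.0653).

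Of 5 tested chitinase genes, 1 had a called interaction, against 45.7% of all tested models. This was chi18-9 (TrF1201C), a member of the chitinases of glycoside hydrolase family 18. It had 40.8, 43 and 45.9 CPM in light with methionine, against 246, 190 and 343 CPM in light without. In darkness chi18-9 had 30.2, 25.3 and 24 CPM with methionine, against 22.7, 24.3 and 23.7 CPM without. Light without methionine was the high group, and the interaction was −2.75 (SE 0.28, edgeR adjusted p = 1.19e-07). The interaction of chi18-6 (0.41, edgeR adjusted p = 0.0664) passed without replicate 2 of light without methionine (0.56) and without replicate 3 of light with methionine (0.50).

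The 4 linked ribosomal protein genes, rps26, rps30, rpl15 and rps28, were lower with methionine under both lightings. Their interactions were −0.11, −0.00, −0.14 and −0.09, none of them past the threshold. Of the remaining symbol genes with a call, psa7 (0.61), pkt1 (0.51) and pkc1, a protein kinase C gene (0.23), were positive. The gene erg28, which acts in ergosterol synthesis (−0.56), and idh2, a subunit of isocitrate dehydrogenase (−0.42), were negative. The pkc1 call, with an edgeR adjusted p of 0.0404, was lost in 7 of the 12 fits that left out 1 library. It was also lost with the replicate block (0.0585), with the mutant libraries alone (0.114) and with no filter on low counts (0.0505).

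Several models without a symbol had far larger interactions. The 5 most positive among those at 10 CPM or more in some mutant group and called without each library in turn were TrE0669C, TrB1918C, TrC1551C, TrG1206C and TrE0670C. TrG1206C (unitig_6_consensus 3805219 to 3806829) had 7.89, 3.92 and 10.8 CPM in light with methionine, against 3.09, 1.04 and 0.421 CPM in light without. The level in darkness was 3.23, 1.38 and 2.12 CPM with methionine, against 4700, 5830 and 5920 CPM without. It thus fell by 11.26 on the log2 scale in darkness and rose by 2.25 in light, an interaction of 13.51 (SE 1.10, edgeR adjusted p = 5.05e-09). The interaction was 14.61 when replicate 1 of light without methionine was left out. TrC1551C (13.79, SE 1.56) was likewise high only in darkness without methionine, at 382 to 490 CPM. Its levels in light with methionine were 0.441, 0.196 and 6.3 CPM, and the interaction was 11.09 (SE 2.46, edgeR adjusted p = 0.00122) without replicate 3 of that group and 14.63 without replicate 1 of light without methionine. TrE0670C (13.19, SE 1.21) was high in the same group, at 1600 to 1990 CPM, and its interaction was 12.50 and 14.70 without the same libraries. In TrE0669C the interaction of 15.71 was 14.67 and 18.85 without them.

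TrB1918C (unitig_1_consensus 6012483 to 6012984, coding length 360 bases) depended on 1 library in its size. It had 54.7, 27.2 and 1470 CPM in light with methionine, against 1.11, 0.367 and 1.38 CPM in light without. In darkness it had 8.26, 8.07 and 13.1 CPM with methionine, against 555, 736 and 731 CPM without. All 3 libraries of light with methionine lay above the 3 of light without it. The interaction was 15.15 (SE 1.95) with replicate 3 of light with methionine and 11.50 (SE 1.22, edgeR adjusted p = 3.31e-07) without it. TrA0210C had the same form, with 91.2, 68.7 and 671 CPM in light with methionine, against 2.18, 2.81 and 2.65 CPM in light without. In darkness TrA0210C had 5.3, 4.72 and 7.24 CPM with methionine, against 164, 223 and 184 CPM without. Its interaction was 11.81 (SE 1.10), and 10.02 without that replicate.

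The most negative interactions by the same rule were in TrF0388W, TrB1951W, TrD1022C, TrC0697C and TrE0251W. TrB1951W (TRIREDRAFT_111442, unitig_1_consensus 6107988 to 6108656, a single exon) had 4.94, 9.01 and 12.9 CPM in light with methionine, against 339, 217 and 446 CPM in light without. Darkness gave 15.2, 14.5 and 21.6 CPM with methionine, against 0.548, 0.437 and 0.759 CPM without. Methionine lowered TrB1951W 38.7-fold in light and raised it 30.2-fold in darkness, an interaction of −10.11 (SE 0.76, edgeR adjusted p = 1.66e-09). The lighting difference was 2.01-fold with methionine, lower in light, and 582-fold without it, higher in light.

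TrC0697C had 4.32, 4.8 and 4.1 CPM in light with methionine, against 267, 182 and 328 CPM in light without. In darkness TrC0697C had 2.46, 2.81 and 4.46 CPM with methionine, against 0.244, 0.374 and 0.138 CPM without. The groups with methionine lay between the 2 groups without it, and the interaction was −9.52 (SE 0.59). TrE0251W (−8.96, SE 0.87) also turned round, though its replicates in darkness with methionine spread from 14.5 to 86.8 CPM. TrD1022C (−9.54, SE 1.39) was almost without counts in darkness without methionine.

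TrF0388W (TRIREDRAFT_103130) was seen almost only in darkness with methionine, at 63.5, 72.7 and 139 CPM. In darkness without methionine it had 1.4, 0.749 and 0.897 CPM. In light it had no counts with methionine, against 0.253, 0.55 and 0.481 CPM without. It was 92.9-fold higher with methionine in darkness and at least 8.46-fold lower with it in light, taking 3 counts over the group as the limit.

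Same-direction responses could also differ greatly in size. TrB0851C and TrB0848C, both on unitig_1_consensus, had no counts in light without methionine. TrB0851C had 9.39, 11.8 and 8.1 CPM in light with methionine, at least 172-fold higher than without it, and TrB0848C had 7.85, 9.7 and 7.81 CPM, at least 149-fold higher. In darkness TrB0851C had 27, 24.3 and 26.7 CPM with methionine, against 14.8, 13.2 and 10 CPM without. TrB0848C there had 74.3, 80.2 and 99.6 CPM with methionine, against 26.9, 26.8 and 24.4 CPM without. The rise in darkness was thus 2.04-fold in TrB0851C and 3.28-fold in TrB0848C.

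TrB0435C fell in both lightings and more in darkness, where it had 0.219, 0.106 and 0.177 CPM with methionine, against 852, 931 and 921 CPM without. In light TrB0435C had 0.0441, 0.098 and 0.0562 CPM with methionine, against 1.16, 0.306 and 0 CPM without, so the fall there rests on few counts. By the ratio of group means it was 7.41-fold, and 2.31-fold without replicate 1 of light without methionine. The interaction of 9.47 (edgeR adjusted p = 0.0106) was not called without replicate 2 of light with methionine (9.10). It was 11.21 without replicate 1 of light without methionine. TrA0432C rose in both, with 39.8, 41.2 and 40.6 CPM in light with methionine, against 0.304, 0.55 and 0.721 CPM in light without. In darkness TrA0432C had 32, 31.5 and 24.9 CPM with methionine and no counts without it, which makes it at least 456-fold higher with methionine.

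By absolute change in CPM, which is not corrected for gene length, 3 models led on the positive side. TrG0022C (unitig_6_consensus 68371 to 70046) lies on the same contig as TrG0018C. It had 13.6, 5.14 and 34.6 CPM in light with methionine, against 13.2, 7.7 and 7.03 CPM in light without. Its dark libraries had 8.09, 3.61 and 3.89 CPM with methionine, against 14000, 15900 and 16800 CPM without. TrG0022C was therefore 3050-fold lower with methionine in darkness, and was not called for methionine in light. The interaction was 12.48 (SE 1.06), and 11.57 without replicate 3 of light with methionine.

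TrC1166C had the same form, with 38.8, 23.2 and 25.8 CPM in darkness with methionine, against 12100, 13800 and 14600 CPM in darkness without, and an interaction of 10.40 (SE 0.59). TrC1130C, of 261 bases, was high without methionine under both lightings. It had 85.6, 193 and 444 CPM in light with methionine, against 9670, 7940 and 7090 CPM in light without. In darkness TrC1130C had 231, 238 and 216 CPM with methionine, against 20000, 27400 and 23500 CPM without. The interaction of 1.60 (edgeR adjusted p = 0.0105) was 0.81 and not called without replicate 3 of light with methionine.

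On the negative side the largest absolute change in CPM was in TrE0391W, a model of 180 coding bases. It had 1980, 2350 and 1370 CPM in light with methionine, against 67400, 50600 and 71500 CPM in light without. In darkness it had 11.9, 10.3 and 10.2 CPM with methionine, against 9.14, 4.05 and 3.24 CPM without. Methionine lowered TrE0391W 33-fold in light, and the interaction was −6.03 (SE 1.31, edgeR adjusted p = 0.000821). It was −6.62 without replicate 1 of darkness without methionine.

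TrB1256C, with a coding length of 29481 bases in 12 exons, had 243, 300 and 483 CPM in light with methionine, against 8180, 6430 and 6700 CPM in light without. In darkness TrB1256C had 460, 542 and 599 CPM with methionine, against 1690, 2050 and 1850 CPM without. It fell under both lightings, more in light, with an interaction of −2.57 (SE 0.32). TrF0363W was instead highest in darkness with methionine, at 6920, 7210 and 7870 CPM, against 1850, 1930 and 1800 CPM in darkness without it. In light TrF0363W had 184, 174 and 291 CPM with methionine, against 139, 474 and 144 CPM without, and its interaction was −2.2 (SE 0.64). Replicate 2 of light without methionine stood apart there. Without it the interaction was −1.37 (SE 0.54, edgeR adjusted p = 0.0485), and the ratio of the means in light was 1.53-fold higher with methionine in place of 1.17-fold lower.

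Some of the models with strong interactions were neighbours. Runs were taken as at least 5 tested models next to each other, all called, all past 4-fold and all of the same sign. There were 4 such runs, all positive, and they held 23 of the 468 positive models past 4-fold and none of the 361 negative ones. The count depended on single libraries: 2 runs met the rule when any 1 library from light without methionine was dropped, or replicate 2 or 3 from light with it, and 3 or 4 met it when any other was dropped. The run TrE0664C to TrE0671C (unitig_4_consensus 2202950 to 2222382, 6 models over 19.4 kb) starts right after TrE0663W of the sorbicillin list. Its summed level was 6.07 ± 3.68 CPM in light with methionine, against 0.927 ± 0.559 CPM in light without (SD, n = 3). In darkness it summed to 6.52 ± 0.906 CPM with methionine, against 5320 ± 404 CPM without, and TrE0669C and TrE0670C belong to it. These 2 and TrE0671C gave nearly all of the last value, with means of 815.5, 1851 and 2642 CPM. The other models of the run, TrE0664C, TrE0665C and TrE0668C, had 4.685, 1.486 and 3.065 CPM there.

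The run TrA1875C to TrA1881W (unitig_0_consensus 5993372 to 6012380, 6 models) summed to 89.1 ± 6.31 CPM in light with methionine, against 23.3 ± 1.84 CPM in light without. In darkness its sum was 121 ± 4.03 CPM with methionine, against 1390 ± 198 CPM without. TrA1880W alone gave most of the last value, with a mean of 1228 CPM. In TrA1875C of this run darkness had 61.78 CPM with methionine and 61.4 CPM without. Light without methionine was the low group of that model, at 11.45 CPM. The run TrB0008C to TrB0016W (unitig_1_consensus 20534 to 44725, 6 models) summed to 32.2 ± 6.42 CPM in light with methionine, against 12.9 ± 0.307 CPM in light without. Its sum in darkness was 43.8 ± 11.1 CPM with methionine, against 254 ± 17.4 CPM without.

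The run TrC1543C to TrC1547W (unitig_2_consensus 5185478 to 5197693, 5 models) differed from the other 3 in its sums, where darkness without methionine was not the highest group. It summed to 112 ± 13.9 CPM in light with methionine, against 13.1 ± 1.49 CPM in light without. In darkness the sum was 175 ± 22.5 CPM with methionine, against 129 ± 2.1 CPM without. Here light without methionine was the low group. In the wild type 4, 6, 4 and 5 models of the runs on contigs 0, 1, 2 and 4 were called with the same sign. In the mutant the same numbers of models were called without each library in turn.

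**Figure D4:**
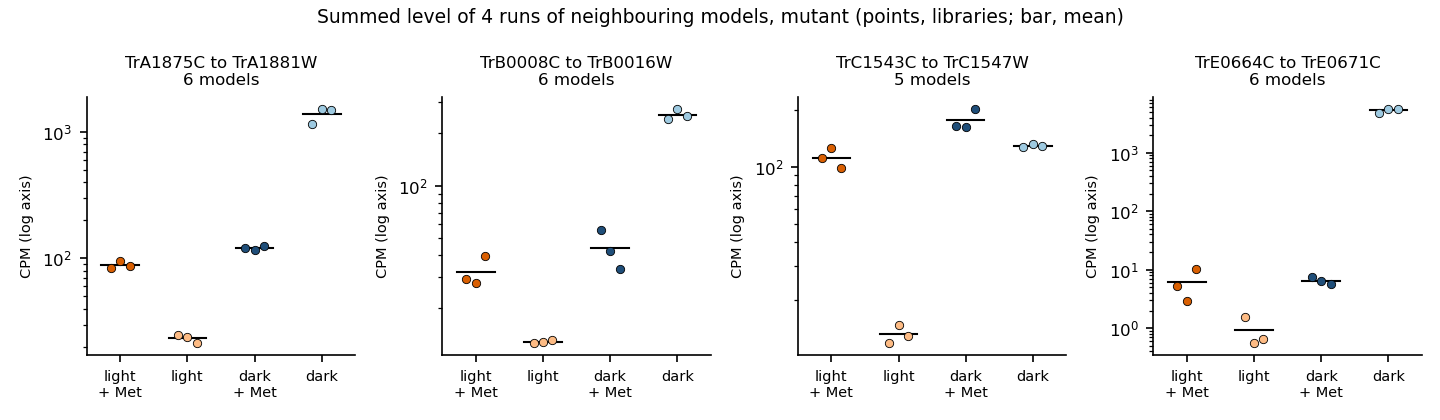
Summed level of the 4 runs of neighbouring models in each mutant library, in CPM on log axes with separate ranges, groups from left to right as light with methionine, light, darkness with methionine and darkness. Points are libraries and bars group means. In 3 runs darkness without methionine is the highest group, and in TrC1543C to TrC1547W light without methionine is the lowest.

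The structure and position of the models were described as well. The median coding length was 1218 bases in positive models past 2-fold, 1152 in negative ones and 1224 in all tested models. Single-exon models made up 19.6% of the positive, 22.7% of the negative and 17.8% of all. Calls were spread over the 7 contigs, with 43.9 to 47.3% of tested models called on each. On unitig_5_consensus 39.9% of the called models were positive, while on the others 48.7 to 51.9% were. The share called moved with depth: it was 36.6% in the lowest quartile of models by counts, where the median SE was 0.50, and 51.3% in the highest quartile, where it was 0.12.

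The same interaction in the wild type served as the comparison for the deletion. It was called in 4618 models (49.6%). Both genotypes called 3461 models with the same sign, 81.4% of the mutant's calls and 74.9% of those in the wild type, and 3 models with opposite signs. Of the 4251 models called in the mutant, 4169 had the same sign in the wild type, called or not. Across all 9308 models Pearson's r between the genotypes was 0.87 and Spearman's rho 0.84, a description over models that share the same libraries and are not independent.

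The difference between the genotypes was then tested directly, as the interaction in the mutant minus that in the wild type. It was called in 0 models (0%) by edgeR's quasi-likelihood test, with a smallest adjusted p of 0.293, while 689 models (7.40%) had an unadjusted p under 0.05. DESeq2 called 5 models, TrC1474W, TrD0407W, TrG0053C, TrB0253C and TrB0833C. The median SE of this difference was 0.25. Its 95% interval, built from this approximate SE, lay within 2-fold in either direction for 5963 models (64.1%). That held for 2827 of the 4251 models called in the mutant and for 623 of the 1855 past 2-fold. For the rest, a difference of 2-fold or more between the genotypes lay within the interval.

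For cel1b the interaction was 4.88 in the mutant and 4.91 in the wild type, a difference of −0.02 with a 95% interval of −0.36 to 0.32. For xyr1 the interactions were 2.13 and 2.14, a difference of −0.01 (−0.31 to 0.29). TrG0018C had 11.20 in the mutant and 8.68 in the wild type, a difference of 2.52 with a wide interval of −0.36 to 5.41.

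The 4 models at 10 CPM or more with the smallest unadjusted p were TrC1474W, TrG0053C, TrB0398C and TrE0011C, each with an edgeR adjusted p of 0.293. In TrE0011C the interaction was 2.2 in the mutant and 4.67 in the wild type, and in TrB0398C it was −1.29 and −0.32. TrG0053C had 0.37 in the mutant and 1.54 in the wild type. In TrC1474W the interaction was −0.14 in the mutant and 0.89 in the wild type. None of the 4 differences passed the threshold in edgeR.

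The pattern of 1 group apart recurred in the wild type to different degrees. Of the 188 models high in darkness without methionine in the mutant, 164 (87.2%) met the same description in the wild type, as did 100 of the 135 that were low there (74.1%). For light without methionine the same held for 42 of the 54 high models (77.8%) and 70 of the 104 low ones (67.3%). For darkness with methionine it held for 27 of the 44 high models (61.4%) and 6 of the 8 low ones, and for light with methionine for 5 of the 10 high and 5 of the 15 low ones. Of the models whose direction turned round, 240 of 325 and 137 of 217 had the same calls in the wild type. The share of all tested models that met these descriptions in the wild type is not given here, so these counts have no background beside them.

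**Figure D5:**
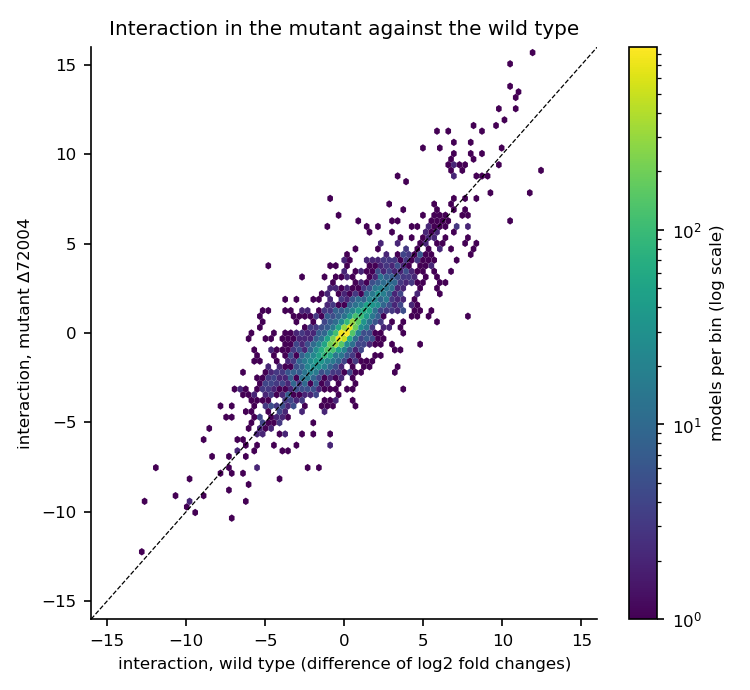
Interaction of each of the 9308 tested models in the mutant (y axis) against the wild type (x axis), as differences of log2 fold changes, with colour giving the number of models per bin on a log scale and the dashed line marking equality. Most models lie along the line, with r of 0.87 over all models.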

How the data were processed

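The authors deposited one table of raw counts for all gene models, in which featureCounts 2.0.1 counted read pairs with the reverse strand setting, per the file headers. Alignment used HISAT2 2.2.1, per the submitters' processing notes. For the genome build, no name is given in the sources used here, and coordinates are those of the deposited table. Libraries followed ribosomal RNA depletion with a stranded kit, per the labels' protocols.

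All 24 libraries were fitted together, with 1 coefficient for each of 8 groups, in edgeR 4.0.16 in R 4.3.3 (TMM, filterByExpr with minimum count 10, quasi-likelihood test), and contrasts were adjusted over all 9308 models. TMM factors ran from 0.877 to 1.114 and library totals from 13210988 to 21224989. Bounds for groups without counts use 3 counts over the group and cover counting error only. The fit was tested on simulated data. Alternatives were the scaling factors of DESeq2, no filter, the DESeq2 1.42.0 test, the mutant libraries alone, a replicate block and leaving out single libraries.

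Models were linked to a reference table of QM6a (GCF_000167675.1, v2.0) by identical span and by neighbours with identical spans in the same order. Up to 6 neighbours on each side were compared, and at least 3 had to match over both sides together. This linked 4012 of 10879 models (36.9%). No gene of the lists for conidiation (3) or sulfur and methionine metabolism (17) was linked. Named models are those with a symbol or in a list, those with the most extreme interactions within each form of response, those with the smallest p between genotypes and those with the largest absolute change. The comparison, the members and the lists were chosen with earlier results of these data known.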

Additional observations from a re-analysis of the deposited data

Results flagged for a closer look

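In 6 models methionine acted in opposite directions in light and in darkness, each response and their difference passed edgeR's quasi-likelihood test, and the smaller response was among the largest of its kind. The interaction was 15.71 in TrE0669C, 15.15 in TrB1918C and 11.81 in TrA0210C, which were higher with methionine in light and lower with it in darkness. It was −12.37 in TrF0388W, −10.11 in TrB1951W and −8.96 in TrE0251W, which were lower with methionine in light and higher with it in darkness. In TrE0669C light without methionine was close to 0 counts and in TrF0388W light with methionine was at 0, so these values are no measure of size.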

How the results depend on the processing

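The labels' replicate numbers gave no clear pairing of the samples: residuals of 18 same-numbered pairs correlated at 0 on average (−0.19 to 0.2), and 6 pairs exceeded 0.1. Most of these pairs join a light group with a dark one. Within light, the pairs with and without methionine correlated at −0.18, −0.19 and 0.12, and within darkness at −0.05, −0.17 and −0.11. So few pairs say little about pairing within a lighting. With a replicate block within each lighting the interaction was called in 3992 models, against 4251 without it. Over the other alternatives the count was 4254 with DESeq2's size factors, 4156 with no filter, 4316 with the DESeq2 test, 3836 with the mutant libraries alone, and 3845 to 4264 with single libraries left out. The difference between genotypes gave 5 calls with the DESeq2 test. Models called in neither lighting were 14 with the mutant libraries alone and 25 to 47 with single libraries left out, and the cause was not tested. Runs of neighbours numbered 2 to 4 with single libraries left out. None of the called named interactions turned its direction. Among 68 named models 10 without a call did with a library left out: chi18-15 (−0.085 to 3.332), chi18-3 (−0.294 to 0.022), rps26 (−0.262 to 0.11), rps30 (−0.113 to 0.187), rps28 (−0.255 to 0.074), gna3 (−0.109 to 0.028), mus38 (−0.13 to 0.011), tfiiea (−0.109 to 0.069), taf19 (−0.138 to 0.047) and rhp3 (−0.004 to 0.068). With DESeq2's size factors rps30 was 0.016 and tfiiea 0.011, and with its test they were 0.017 and 0.01. With a library left out, 6 named models lost a call and 6 gained one. The fewest counts limit precision most, as the SE by quartile of counts shows.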

Other observations

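DESeq2's 5 calls for the difference between genotypes were not made by edgeR, whose adjusted p was 0.293 or higher for each. The largest differences among them were 8.34 in TrB0253C, which had no counts in the mutant in light without methionine, and 2.53 in TrD0407W. TrD0407W averaged 109 CPM in the mutant in darkness with methionine, against 4.1 CPM in darkness without it, and 101 and 3.46 CPM in the wild type. In light it averaged 6.15 CPM with methionine and 1.06 CPM without it in the mutant, and 3.17 and 2.76 CPM in the wild type. These 5 models were named after their values were seen.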
